A study of Capra hircus with 3 samples.

Results

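The proteasome and ubiquitin records of a sheep gene expression array were described in the skin of Arbas Cashmere goats kept under a short or a natural photoperiod. Members were the non-control records whose description on the array holds the word proteasome or ubiquitin, after leaving out records with the words ribosomal protein or interferon and names that start with ISG, and these exclusions removed 0 records. The rule found 30 of the 14363 genes (sheep identifiers) on the array, measured by 35 of its 15008 probes on 39 spots. The 6 female adult goats were 2 years old and of the same strain, and 3 of them were allocated at random to each group. Goats under the short photoperiod were outdoors for 7 h per day, when they grazed, fed and drank. Otherwise they stayed in a shed of about 0.1 lux that was 1 °C cooler than outside, and the control goats grazed under the natural photoperiod. The study began in May, and its discussion gives July as the month of sampling. Skin was cut from one side of the body, and each of the 3 arrays carried the RNA of 1 goat of each group from the same parent, labelled with Cy5 for the short and with Cy3 for the natural photoperiod. The dyes were swapped on 0 arrays, so a bias of a probe for 1 dye and a difference between the groups cannot be told apart. All values below are log2 ratios of short over natural photoperiod after loess normalization within each array unless another scale is named, and a value above 0 means a higher signal in the short photoperiod goat of that array.

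The ubiquitin system marks proteins for destruction through a cascade of activating enzymes, conjugating enzymes and ligases, and hydrolases take the ubiquitin off again. The proteasome that degrades the marked proteins consists of a 20S core, whose beta subunits carry the proteolytic sites, and a 19S cap that binds and unfolds the substrate. Under interferon and in many leukocytes, the core subunits PSMB5, PSMB6 and PSMB7 can be replaced by the immunoproteasome subunits PSMB8, PSMB9 and PSMB10, and the PA28 activator made of PSME1 and PSME2 can dock on the core, a form known for producing peptides for MHC class I molecules. In skin, protein turnover by this system accompanies the growth of the hair follicle and the differentiation of the epidermis.

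The arrays carried the signal of skin. All 7 probes of the epidermis and hair list and all 12 probes of the dermis list clearly exceeded background in Cy5 and Cy3 on every array. Of the leukocyte list 13 of 15 probes were, while CD4 was not, and of the skeletal muscle list myoglobin (MB) was well above background and the slow myosin MYH7 was not. Among the members, 34 of 35 probes clearly exceeded background with either dye on every array. The exception was the ligase MIB2, which was well above background in Cy5 on 1 array. Of the 117 member spots on the 3 arrays, 0 had an outlier flag and 0 were saturated.

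Among the 14977 probes fitted with limma, the Benjamini-Hochberg adjusted p was under 0.05 for 0 of the 35 member probes, as against 0.00668% of all probes (1 probe). At an unadjusted p under 0.05, 2 member probes had a higher signal in the short photoperiod goats (5.71%, against 9.11% of all tested probes) and 4 were lower (11.4%, against 9.35%). Higher on all 3 arrays were 6 of 35 (17.1%, against 21.6% of the 14868 probes with a value on every array), and lower on all 3 were 8 (22.9%, against 22.0%). A mean change of at least 2-fold, the fold rule of the study's methods, was found for 0 member probes and for 0.841% of all tested probes. These shares were close to those of the whole array, and under loess the members as a whole were therefore not set apart by any of the counts. The p-values measure the spread between these 3 arrays, and having only 3 of them limits how precise each mean can be.

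The median of the members' mean ratios was 0.04, with -0.05, 0.06 and 0.02 on replicates 1, 2 and 3, beside -0.01 over all tested probes. The mean ratio of 24 members (68.6%) was smaller than 0.25 in size, against 68.1% of all tested probes. Over the 35 members the SD of the ratios was 0.25, 0.26 and 0.56 on replicates 1, 2 and 3, and over all tested probes it was 0.40, 0.37 and 0.49. The members thus spread less than the array on replicates 1 and 2 and more on replicate 3. Pearson's correlation across the 35 members came to 0.76 for replicates 2 and 3, to 0.20 for the first pair of arrays (1 and 2) and to 0.23 for the remaining pair (1 and 3), beside 0.36, 0.32 and 0.18 over all probes. Member probes of 1 record share their target and are not independent, so these values only describe the arrays.

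**Figure D1:**
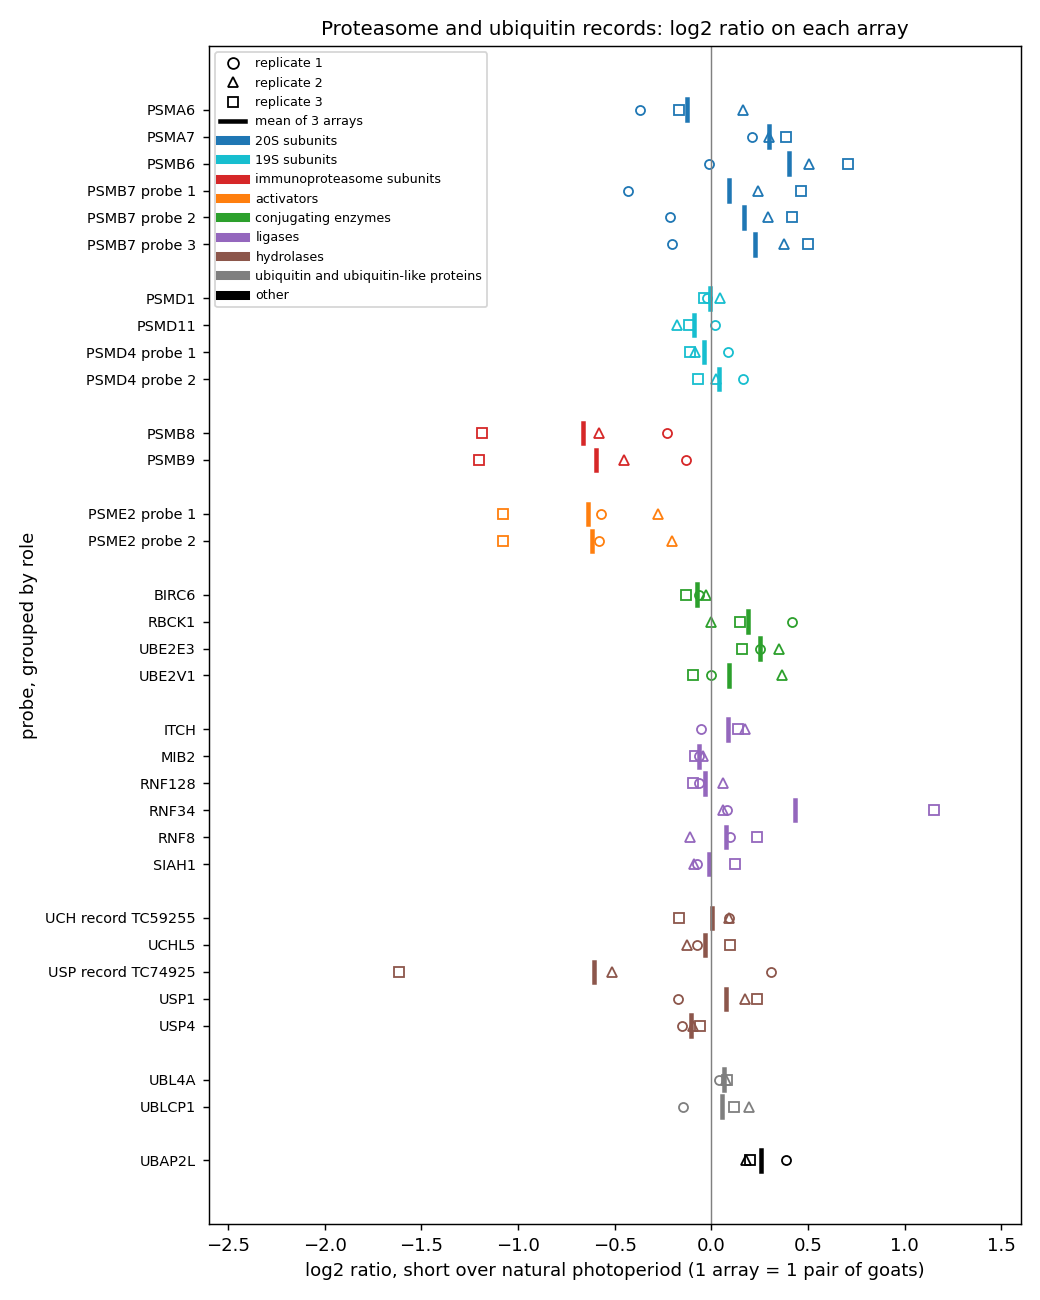
Log2 ratio of short over natural photoperiod (horizontal axis) of 32 member probes (vertical axis, grouped by role). Each symbol is 1 array with 1 pair of goats, the thick bar is the mean of the 3 arrays, and colours give the role. PSMB8, PSMB9 and PSME2 lie left of 0 on every array, while most other members lie close to 0.

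The 4 lower probes at an unadjusted p under 0.05 belonged to the immunoproteasome and its activator. PSMB8 (NM_001131030), the inducible counterpart of PSMB5, had normalized log2 intensities of 14.11, 13.86 and 13.92 in the short photoperiod goats of replicates 1, 2 and 3 and of 14.34, 14.44 and 15.11 in their controls. PSMB9 (TC58876), the inducible counterpart of PSMB6, had 14.10, 13.66 and 13.37 in the short photoperiod goats and 14.23, 14.11 and 14.57 in the controls. In both genes the 3 short photoperiod goats lay below the 3 controls, by a narrow margin for PSMB9, and the control of replicate 3 was the highest goat. The same separation was found for the PSME2 probes and thus for 4 of 35 member probes, against 7.16% of the probes with a value on every array, and the opposite one for 1 member probe, against 6.44%.

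As ratios within arrays, PSMB8 had -0.23, -0.58 and -1.19 on replicates 1, 2 and 3, with a mean of -0.67 ± 0.48 (SD, n = 3), a fold change of 0.631 and a limma 95% confidence interval from -1.18 to -0.15. Its adjusted p was 0.215. PSMB9 had -0.13, -0.45 and -1.20, with a mean of -0.59 ± 0.55, a fold change of 0.662, an interval from -1.17 to -0.02 and an adjusted p of 0.257. Both subunits were lower on all 3 arrays, by the least on replicate 1 and by the most on replicate 3, but neither passed the adjustment over all probes. Without replicate 3 the means were -0.41 for PSMB8 and -0.29 for PSMB9. Under median centring in place of loess both means became -0.38, and PSMB9 turned to 0.05 on replicate 1. In the goat assembly ARS1.2 the genes lie side by side with only TAP1, a transporter of peptides for MHC class I, between them, and no probe named TAP1 was found on the array.

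PSME2 (EU366495), the beta subunit of the PA28 activator, was measured by a pair of probes that overlap by 58 bases and are therefore nearly 1 measurement. The first probe had -0.57, -0.27 and -1.08 on replicates 1, 2 and 3, with a mean of -0.64 ± 0.41 (SD, n = 3) and an adjusted p of 0.199 from limma. The second had -0.58, -0.20 and -1.08, with a mean of -0.62 ± 0.44 and an adjusted p of 0.215. PSME2 was lower on every array, and here replicate 2 rather than replicate 1 showed the smallest difference. Without replicate 3 the means were -0.42 and -0.39. Under median centring the decrease nearly vanished, with means of -0.04 and -0.07 and values on replicate 2 that turned to 0.33 and 0.32. The PSME2 probes are printed here with the bases they share in capitals, beside the probe of PSMB8, as the sequences on which the lowest values of the list rest.
PSME2 probe 1: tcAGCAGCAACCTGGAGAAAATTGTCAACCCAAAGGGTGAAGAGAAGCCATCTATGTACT
PSME2 probe 2: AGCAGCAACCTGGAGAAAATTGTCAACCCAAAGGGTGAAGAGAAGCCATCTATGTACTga
PSMB8: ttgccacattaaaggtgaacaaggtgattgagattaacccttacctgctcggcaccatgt

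**Figure D2:**
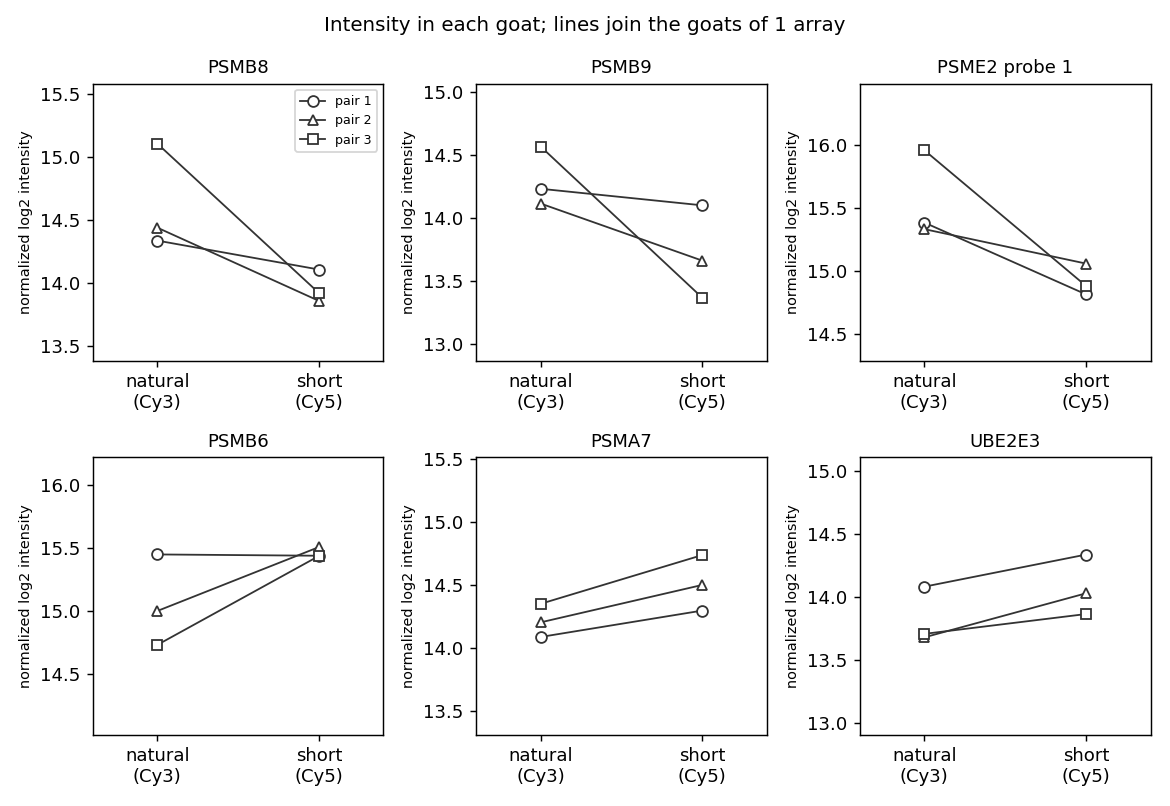
Normalized log2 intensity (vertical axes, each spanning the same width) of 6 probes in the 6 goats, with natural photoperiod in Cy3 on the left and short photoperiod in Cy5 on the right. Lines join the goats of 1 array. For PSMB8, PSMB9 and PSME2 all short photoperiod goats lie below all controls, and for PSMB6 the short photoperiod goats lie between 15.43 and 15.50 while the controls spread from 14.73 to 15.45.

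Markers that respond to interferon were read on the same arrays. The 7 interferon-induced probes had a median ratio of -1.21, -0.10 and -2.74 on replicates 1, 2 and 3. Their mean log2 intensity was 11.22, 11.39 and 11.49 in the short photoperiod goats and 12.39, 11.33 and 13.81 in the controls, with ISG17 as the brightest. All 7 had a mean below 0 and 5 were lower on all 3 arrays (against 22.0% of all probes), the exceptions being MX1 and MX2, which were higher on replicate 2. ISG17 and BST-2B are among the genes the paper reports as down-regulated on these arrays, so their direction was known beforehand. IRF1, a transcription factor that acts on the immunoproteasome genes, had -0.01, -0.26 and -0.42. Its adjusted p was 0.369, and it was picked out after its values were seen. PSME2 and the interferon-induced list thus had the same order of the arrays, and so had the leukocyte list described next. IRF1 had the order of the immunoproteasome subunits. These subunits had ratios of -0.58 and -0.45 on replicate 2, where the interferon-induced list was close to 0.

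The leukocyte list of 15 probes on 8 genes had a median ratio of -0.45, -0.22 and -0.53 on replicates 1, 2 and 3. Of its probes 14 were lower on all 3 arrays (against 22.0% of all probes). Its mean log2 intensity was 11.76, 11.62 and 11.58 in the short photoperiod goats and 12.22, 11.98 and 12.18 in the controls, with LYZ as the brightest. CD3D, a chain of the T cell receptor complex picked out after its values were seen, had means of -0.80 and -0.74 on its probes. The means were -0.35 and -0.71 for CD3E, and 0.05 and -0.30 for CD4, which was not clearly above background. FCGR1A, also in this list, is among the genes the paper reports as down-regulated on these arrays. With limma 0 probes of either list had an adjusted p under 0.05, while 4 of the 7 and 13 of the 15 were lower at an unadjusted p under 0.05 (against 9.35% of all tested probes). Probes of the same leukocyte gene are not independent, so these counts are not counts of separate markers. Under median centring 6 of the 15 leukocyte probes had an adjusted p under 0.05, all with means below 0. Over all tested probes this share was 12.6% in either direction. The median of the leukocyte list was -0.48 in this setting. The 6 were the CD3D and ITGAM probes, a CD3E probe and a CD4 probe, and the median was the value of the other CD4 probe. These calls and this median thus rest in part on a gene that was not clearly above background. From loess to median centring the dim ITGAM probes moved from -0.36 and -0.41 to -0.66 and -0.65. The brighter FCER1G probes moved from -0.34 and -0.31 to 0.03 and -0.05, and the LYZ probes from -0.49 and -0.54 to -0.16 and -0.06. The part of leukocytes or of an interferon response in the PSMB8, PSMB9 and PSME2 values was not tested. In whole skin fewer cells of a type and less RNA per cell cannot be told apart. The 7 probes of the epidermis and hair list were higher on all 3 arrays (against 21.6% of all probes), with a median of 1.16 and 5 probes at an adjusted p under 0.05 under median centring. All genes of this list except KRT14 are among those the paper reports as up-regulated on these arrays, so their direction was known beforehand. The 12 probes of the dermis list had a median of -0.33, with 10 means below 0 under loess and a median of 0.08 under median centring. The proliferation list (5 probes) had medians of -0.56, 0.03 and 0.93 on the 3 arrays, the adipose list (4 probes) 0.11, -0.14 and -0.50, the skeletal muscle list (3 probes) -0.24, 0.24 and 0.04, and the blood list (2 HBB probes) 0.29, -2.03 and 1.05, so these lists had no shared direction over the arrays.

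The 20S core was represented by 4 genes on 6 probes. Their median ratio was -0.21, 0.30 and 0.44 on replicates 1, 2 and 3, with a median of the means of 0.20. The median was thus above 0 on replicates 2 and 3 and below 0 on replicate 1, and it was 0.06 without replicate 3 and 0.35 without replicate 1. PSMA7 (TC81296), an alpha ring subunit, had 0.21, 0.30 and 0.39, with a mean of 0.30 ± 0.09 (SD, n = 3) and an adjusted p of 0.231 from limma. It was the 20S member with the smallest spread and the only one higher on all 3 arrays under loess. PSMB6 (TC53911), the core subunit with caspase-like activity, had -0.01, 0.51 and 0.71, with a mean of 0.40 ± 0.37 and an adjusted p of 0.288. Without replicate 3 the mean of PSMB6 was 0.25. PSMA6 (NM_001139446) had -0.37, 0.16 and -0.17, with a mean of -0.12 ± 0.27 under loess and of 0.65 under median centring, so its sign differed between the arrays. Under loess its mean was -0.003 without replicate 1 and -0.27 without replicate 2.

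PSMB7 (EU366497), the core subunit with trypsin-like activity, was measured by 3 probes whose means were 0.09, 0.17 and 0.22, with SDs of 0.46, 0.34 and 0.37. All 3 were below 0 on replicate 1, from -0.43 to -0.20, and above 0 on replicates 2 and 3. Leaving out replicate 3 turned probe 1 to -0.09 and lowered probes 2 and 3 to 0.04 and 0.09. The probes cover nearly the same stretch, but probe 1 lacks 2 bases that probes 2 and 3 hold, which are in capitals.
PSMB7 probe 1: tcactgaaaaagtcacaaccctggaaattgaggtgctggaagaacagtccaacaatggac
PSMB7 probe 2: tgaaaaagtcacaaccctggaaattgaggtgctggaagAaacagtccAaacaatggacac
PSMB7 probe 3: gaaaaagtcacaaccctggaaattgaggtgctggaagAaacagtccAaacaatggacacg
The ratios of probe 1 minus those of probe 3 were -0.23, -0.13 and -0.04 on replicates 1, 2 and 3. This difference was below 0 on each array, with a mean of -0.13 ± 0.09 (SD, n = 3). Probes 2 and 3, which share 59 bases, differed by -0.06 on average.

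The inducible subunit PSMB9 and the core subunit PSMB6, whose place it takes, differed in their ratios on the same arrays. The ratio of PSMB9 minus that of PSMB6 was -0.12, -0.96 and -1.91 on replicates 1, 2 and 3, with a mean of -0.995 ± 0.89 (SD, n = 3). It was below 0 on all 3 arrays. Under median centring it was -0.51, -1.39 and -2.27 and thus also below 0 on each. Without replicate 3 the mean was -0.54. The median of the PSMB8, PSMB9 and PSME2 probes minus that of the 20S probes was -0.19, -0.66 and -1.57, with a mean of -0.81 ± 0.70, of -0.43 without replicate 3 and of -1.03 under median centring. These differences were chosen after the values were seen, so their sign was known, and a bias of a probe for 1 dye is part of them.

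The 19S cap was represented by 3 genes on 4 probes, and these had the smallest ratios of the proteasome groups. Their median was 0.05, -0.03 and -0.09 on replicates 1, 2 and 3, and the means lay between -0.09 and 0.04 under loess and between 0.23 and 0.43 under median centring. PSMD4 (NM_001104928), a ubiquitin receptor of the cap, had 0.09, -0.08 and -0.11 on its first probe. The second probe, which shares 58 bases with it, had 0.16, 0.02 and -0.07. This probe was printed on 5 spots, and the SD between the spots was 0.06, 0.04 and 0.06 on the 3 arrays, which gives the technical spread within an array. The mean of this probe was 0.04 ± 0.12 (SD, n = 3) and so lay closer to 0 than the spread between arrays. PSMD11 (TC57012) and PSMD1 (TC64975), both non-ATPase subunits, had means of -0.09 ± 0.10 and -0.01 ± 0.05 (SD, n = 3). The limma 95% confidence intervals of the 4 probes lay between -0.35 and 0.30.

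The conjugating enzymes, which carry activated ubiquitin to the ligases, were represented by 4 genes on 4 probes with a median of 0.13, 0.17 and 0.03 on replicates 1, 2 and 3. UBE2E3 (TC56682) had 0.25, 0.35 and 0.16, with a mean of 0.25 ± 0.10 (SD, n = 3) and an adjusted p of 0.276 from limma. UBE2V1 (TC57587), a variant that lacks the catalytic cysteine and works as a partner of UBE2N, had a mean of 0.09 ± 0.25 that came from replicate 2, at 0.37, and turned to -0.05 without that replicate and also under median centring. BIRC6 (TC55587), an inhibitor of apoptosis with a conjugating domain, had a mean of -0.07 ± 0.05. RBCK1 (TC61572), which the array describes as an interacting protein of a conjugating enzyme and which is itself a ligase of linear ubiquitin chains, had a mean of 0.19 ± 0.21. Its mean was 0.07 without replicate 1 and 0.06 under median centring. The median of the means was 0.14 with RBCK1 and 0.09 without it, a change chosen after the values were seen. Under median centring it was 0.01 with RBCK1 and -0.05 without it. Without RBCK1 the array medians were -0.003, 0.35 and -0.09 on replicates 1, 2 and 3. UBE2E3 was the only conjugating enzyme above 0 on every array, and its interval reached from just below 0 to 0.51.

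The ligases, which choose the substrate, were represented by 6 genes on 6 probes with a median of -0.06, 0.01 and 0.13 on replicates 1, 2 and 3. RNF34 (TC55057), a RING finger ligase, had 0.08, 0.06 and 1.15, with a mean of 0.43 ± 0.62 (SD, n = 3) and an adjusted p of 0.402 from limma. In the goats of replicate 3 its log2 intensity was 14.05 under the short photoperiod and 12.90 in the control, while the other 4 goats lay between 13.86 and 14.02. The mean therefore rested on the control of replicate 3, and without that replicate it was 0.07. The HECT ligase ITCH (TC66459) had a mean of 0.09 ± 0.12 under loess and of -0.06 under median centring. RNF8 (TC63540), which acts at DNA breaks, had 0.08 ± 0.17, SIAH1 (TC56049) -0.01 ± 0.12 and RNF128 (TC57489) -0.03 ± 0.08, and SIAH1 changed sign in some other processings, RNF8 only without replicate 3. The dim MIB2 (TC78070) had a mean of -0.06 under loess, of -0.21 with the ratios of Feature Extraction and of -0.47 under median centring, and RNF128 had -0.32 under median centring. All means of the ligases other than RNF34 were smaller than 0.10 in size under loess.

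The hydrolases, which remove ubiquitin, were represented by 5 genes on 5 probes with a median of -0.07, -0.10 and -0.06 on replicates 1, 2 and 3. A record described only as a ubiquitin-specific protease (TC74925) had 0.31, -0.51 and -1.61, with a mean of -0.61 ± 0.97 (SD, n = 3) and an adjusted p of 0.426 from limma. Its log2 intensity was 15.53, 15.28 and 14.95 in the short photoperiod goats and 15.22, 15.79 and 16.56 in the controls, so the groups overlapped. It had the largest spread between arrays of all members, with a mean of -0.10 without replicate 3 and of 0.11 under median centring. USP4 (TC55908) had -0.15, -0.10 and -0.06, with a mean of -0.10 ± 0.05, and was thereby lower on all 3 arrays under loess, while its mean was 0.03 under median centring. USP1 (TC55962), which acts on PCNA and FANCD2, had 0.08 ± 0.22, and UCHL5 (TC53500), a hydrolase bound to the 19S cap, had -0.03 ± 0.12. The other record of a carboxyl-terminal hydrolase (TC59255) had a mean of 0.00 ± 0.15. UCHL5 turned to 0.45 under median centring, and none of the 5 means exceeded the spread of its arrays by enough to pass the test.

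Of the class of ubiquitin and ubiquitin-like proteins (5 probes, of which a selection is reported), UBL4A (TC72549), which helps to insert proteins into membranes, had 0.04, 0.08 and 0.08 on replicates 1, 2 and 3, with a mean of 0.06 ± 0.02 (SD, n = 3). UBLCP1 (TC54994), a phosphatase that acts on the proteasome, had a mean of 0.06 ± 0.18. Outside the named classes, UBAP2L (TC68805), a protein of stress granules with a ubiquitin-associated domain, had 0.39, 0.18 and 0.20, with a mean of 0.26 ± 0.11 and an adjusted p of 0.28 from limma. UBL4A and UBAP2L were higher on all 3 arrays, the former by less than 0.10. UBLCP1 changed sign without replicate 2, to -0.01.

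The direction of many members depended on how the dyes were balanced over brightness. Of the 35 member probes, 22 lay in the brightest 20% of the tested probes. The 2996 probes in that 20% had a median mean ratio of -0.02 under loess and of 0.40 when each array was only centred on its median, and the 22 members among them had 0.00 and 0.44, while the median of all tested probes was 0.00 under median centring. The members' median was 0.23 under median centring, and 9 of them (25.7%) had an adjusted p under 0.05, all 9 with means above 0, beside 1880 of all tested probes (12.6%), of which 1014 (6.77% of all) had means above 0. All 9 lay in the brightest 20%, where 9 of 22 members (40.9%) and 842 of 2996 probes (28.1%) were called, and in the brightest 5% these were 8 of 11 members (72.7%) and 455 of 749 probes (60.7%). The calls under this setting were thus frequent among bright probes in general. Among them were PSMA6, PSMA7, PSMB6, PSMB7 probes 2 and 3 and UBL4A, with means from 0.60 to 1.01 and adjusted p-values from 0.0344 to 0.0494, where PSMA6 had a mean below 0 under loess. The highest adjusted p-values of these probes over the alternatives were between 0.731 and 0.995. The 20S median was 0.81, the 19S median 0.33 and the hydrolase median 0.20 under this setting, beside 0.20, -0.02 and -0.03 under loess. The immunoproteasome median moved from -0.63 to -0.38 and was the only proteasome class with a median below 0 under both, apart from the activator PSME2, at -0.63 and -0.06.

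**Figure D3:**
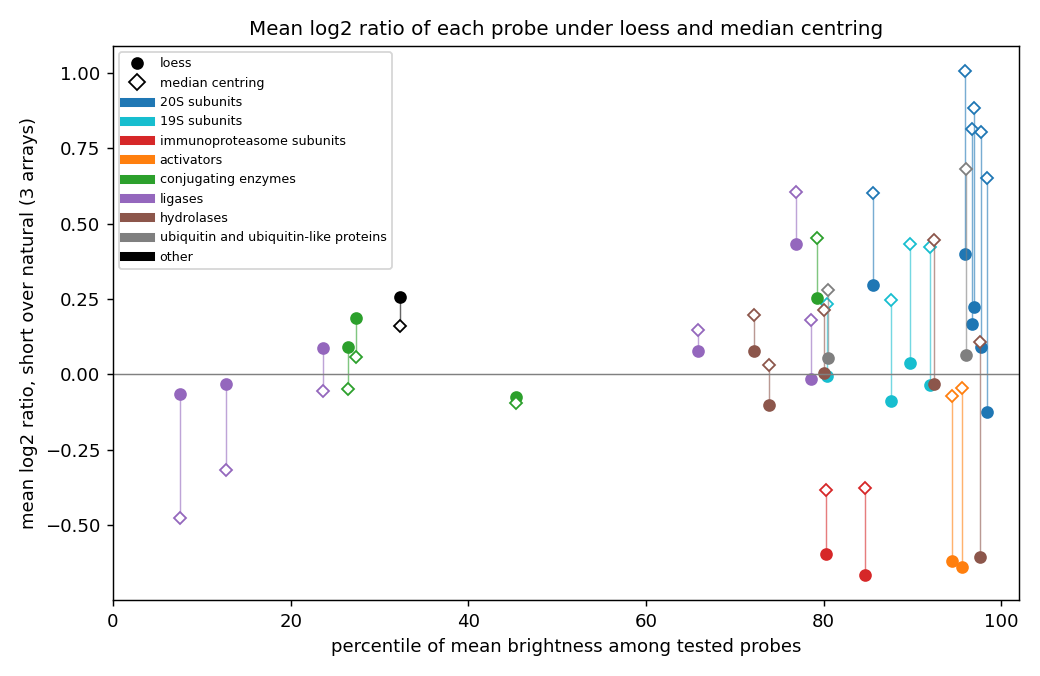
Mean log2 ratio over 3 arrays (vertical axis) of 32 member probes under loess (filled circles) and under median centring (open diamonds), against the percentile of its mean brightness among the tested probes (horizontal axis), with roles in colour. Lines join the values of 1 probe, and those of the 20S subunits and of UBL4A, at the bright end, move upward under median centring while MIB2 and RNF128, at the dim end, move downward.

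Other genes of the pathway were found outside the rule. Of a list of adaptors, cullin ligase parts and shuttle factors, 10 genes on 12 probes were on the array, among them the ring protein RBX1, the adaptor SKP1, the receptor SQSTM1, the segregase VCP and the muscle-associated F-box protein FBXO32. Their means lay between -0.23 and 0.14 under loess, with a median of -0.04, 0 higher and 2 lower on all 3 arrays and 0 with an adjusted p under 0.05 from limma (0 at an unadjusted p under 0.05), and the median was 0.19 under median centring, with 2 probes at an adjusted p under 0.05. The lowest was KEAP1 (TC56326), an adaptor of a cullin ligase, with -0.01, -0.46 and -0.23 under loess and a mean of 0.12 under median centring. A further 14 genes of the system, found after the array's names were seen, had a median of 0.14, 10 of 14 probes were higher on all 3 arrays (against 21.6% of all probes), and 0 had an adjusted p under 0.05 from limma, with 2 at an unadjusted p under 0.05 and 2 at an adjusted p under 0.05 under median centring (against 12.6% of all probes). The 2 at an unadjusted p under 0.05 were RNF10, with a mean of 0.27, and NAE1, which was below background on every array. The mean of NAE1 turned from 0.33 to -0.24 under median centring, and its highest value over the other settings was 2.13. Of the 14 genes, the activating enzyme UBA1 had 0.06, 0.22 and 0.03, the 19S ATPase PSMC4 0.11, 0.13 and 0.20, and the conjugating enzyme UBE2N, the partner of UBE2V1, -0.50, -0.07 and -0.01. PSMC4 and UBA1 were thus above 0 on every array and UBE2N below 0 under loess, while UBE2N had a mean of 0.22 under median centring, and PSMC4 and UBE2N were picked out after their values were seen. Of 21 genes chosen by their role in the system, 5 had a member record and 1, UBA1, a record outside the rule, and the other 15, such as PSMB5, PSMB10 and PSME1, were not found under their names and are not analysed here. On the array, 11056 of the 15008 probes were named by a transcript without a gene description or had none, so genes of the system without a name could not be counted.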

How the data were processed

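Skin RNA of 6 goats was measured on 3 two-colour Agilent sheep arrays. Spot and local background intensity values are deposited without normalization, from Agilent Feature Extraction 10.7.3.1 per the file headers. The files also hold the authors' log10 ratio of processed signals, and the series' value table holds the authors' log2 ratio of Cy5 over Cy3, a unit read from its match to those signals.

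Ratios were computed in R 4.3.3 with limma 3.58.1. Background was corrected by normexp (offset 50, fitted with the control spots included). Non-control spots then went through loess per array, where spots with an outlier flag had weight 0 and were removed afterwards. Ratios of spots with the same probe were averaged. Probes with values from 2 or more arrays were tested against 0 by lmFit and eBayes, with Benjamini-Hochberg adjustment over all of them at 0.05. The pairing, which comes from the study's discussion, is part of the ratio. Goat levels are single channels after loess and Aquantile normalization. The fit was also run on ratios simulated from its own model, without a dye bias or a trend with brightness. That run checks the code and cannot show how well the model holds for these arrays. Tables were made with pandas 2.3.3, probes compared with biopython 1.88 and figures drawn with matplotlib 3.10.9.

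Symbols were taken from the array's names and descriptions. Of the 30 identifiers 0 matched the goat table (ARS1.2) by accession, and 28 of 28 assigned symbols are in it. Classes follow words in the descriptions. Named were, per class, the 3 highest and 3 lowest probes above background, 21 genes by role, any called or 2-fold member and the 5 smallest p-values. The remaining members are named to complete the classes, except for some that are counted but not reported here. Lists covered the pathway and markers of epidermis and hair, dermis, leukocytes, interferon response, proliferation, fat, skeletal muscle and blood. Members and lists were chosen with earlier results of these data known. Other settings, 14 in number, changed the background, normalization, filters, probes, arrays or test.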

Additional observations from a re-analysis of the deposited data

How the results depend on the processing

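Most values kept their direction under settings other than median centring. The count of member probes with an adjusted p under 0.05 was 0 in every setting except median centring, where it was 9, and the immunoproteasome median stayed below 0 in all. PSMB8, PSMB9 and both PSME2 probes had means below 0 in every setting that gave them a value, and PSME2 probe 2 has none with the brightest probe of each identifier. Of the 35 member probes, 18 changed sign under at least 1 alternative, and the largest mean among them was 0.61 in size.

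Median centring gave 14 members higher and 2 lower at an unadjusted p under 0.05, 20 higher and 4 lower on all 3 arrays and 2 with a 2-fold mean. As shares these were 40.0%, 5.71%, 57.1% and 11.4% of the members, beside 17.2%, 17.1%, 28.2% and 28.4% of all probes in the same setting, where 2.47% of all probes had a 2-fold mean. Class medians were 0.81 for 20S subunits, 0.33 for 19S subunits, 0.00578 for conjugating enzymes and 0.20 for hydrolases. The sign changed for PSMA6 to 0.65, PSMD1 to 0.23, PSMD11 to 0.25, PSMD4 probe 1 to 0.42, UBE2V1 to -0.0471, ITCH to -0.0562, SIAH1 to 0.18, UCHL5 to 0.45, the protease record TC74925 to 0.11 and USP4 to 0.0324. By construction this setting leaves a dye difference that depends on brightness in place, and whether loess removes only that was not tested.

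With the ratios of Feature Extraction, and equally with the authors' table, the sign changed for PSMD1 to 0.0429, PSMD4 probe 1 to 0.0293, SIAH1 to 0.00733 (0.00737 in the table), the hydrolase record TC59255 to -0.0102 and UCHL5 to 0.0074 (0.00737 in the table), the hydrolase median was -0.0102, and the 19S median turned to 0.0361. The members higher at an unadjusted p under 0.05 numbered 1 with outlier spots kept, 1 with the brightest probe of each identifier and 0 in separate channels with no replicate block, a setting that ignores the pairing of goats, beside 9.16%, 9.12% and 3.39% of all probes. The cause was not tested.

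Leaving out each replicate in turn gave 0 to 3 members higher and 2 to 4 lower at an unadjusted p under 0.05, 8 to 14 higher and 10 to 12 lower on all arrays left, and 0 to 1 with a 2-fold mean. Over all probes the shares were 5.05% to 7.80%, 5.73% to 8.54%, 29.2% to 33.1%, 29.8% to 34.1% and 1.05% to 1.92%. Fewer arrays make a shared sign easier to reach by construction. The 20S median ran from 0.0633 to 0.355, the 19S median from -0.0599 to 0.00632, the immunoproteasome median from -0.855 to -0.349, the conjugating enzyme median from 0.0785 to 0.195, the ligase median from -0.00274 to 0.0402 and the hydrolase median from -0.0982 to -0.0384. Means that changed sign ran from -0.0944 to 0.351 for PSMB7 probe 1, from -0.0319 to 0.0104 for PSMD1, from -0.0964 to 0.00224 for PSMD4 probe 1, from -0.0235 to 0.0935 for PSMD4 probe 2, from -0.0490 to 0.182 for UBE2V1, from -0.0049 to 0.169 for RNF8, from -0.0813 to 0.0250 for SIAH1, from -0.0389 to 0.0911 for TC59255, from -0.0982 to 0.0137 for UCHL5, from -0.000439 to 0.204 for USP1 and from -0.0137 to 0.158 for UBLCP1. The cause was not tested. The difference PSMB9 minus PSMB6, chosen after seeing the data, was below 0 in every setting.

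With 3 arrays and 0 dye swaps, a bias of a probe for 1 dye stays in every mean. Signal over background limited 1 member, MIB2, whose ratio is pulled toward 0 by the offset, and it has no value in the setting with only probes above background.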
